A study of Mus musculus with 6 samples.

Results

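Aminoacyl-tRNA synthetases are the enzymes that attach each amino acid to its transfer RNA, and 36 of them were followed here in mouse B cells that carried Sox2. They were the rows of the deposited count table whose symbols are on a list of 20 cytosolic enzymes, with no 2 at the end of the symbol, and 16 mitochondrial enzymes, with a 2 at the end. All 36 were among the 37620 genes of the table and among the 12899 genes that passed the filter on low counts. The lowest count of any of them in a library was 127 and the highest 22188.

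The study read total RNA from B cells of C57Bl/6 mouse spleens, from animals of 4 months. The 3 pMIR-Sox2 libraries came from cells infected with a retrovirus that carries Sox2, a transcription factor of stem cells and of the early nervous system. The 3 pMIR libraries came from cells infected with the same kind of vector without Sox2. Cells of both groups were kept in culture with an anti-CD40 antibody (1 µg/ml) and the cytokine IL-4 (12.5 µg/ml), which activate B cells and make them divide, were infected at 24 h and again at 48 h, and were sorted at 96 h for mCherry, a red fluorescent protein that stood for infection. The promoter in front of Sox2 is not given in the sources used here, and neither is whether the replicates came from separate animals. The p-values therefore measure the spread between these samples.

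Each cell keeps a pair of protein-making systems that need charged transfer RNA: the ribosomes of the cytosol and those of the mitochondria. Most amino acids have a separate nuclear gene for each system, while Gars (glycine) and Kars (lysine) serve both from 1 gene. A group of the cytosolic enzymes is held in the multisynthetase complex, a particle built on the scaffold proteins Aimp1, Aimp2 and Eef1e1. An activated B cell grows, divides and makes antibody, and so needs much charged transfer RNA. Many cytosolic synthetase genes are known targets of Atf4, the transcription factor of the response to amino acid shortage.

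Gene counts per library were 17153805 to 20770447 in pMIR-Sox2 and 21421769 to 27692437 in pMIR. Levels below are CPM, gene counts scaled to a fixed library size with TMM factors, and are given for replicates 1, 2 and 3 in that order. Sox2 had 989, 786 and 624 CPM in pMIR-Sox2 libraries, against 0.738, 0.334 and 1.78 CPM in pMIR libraries. Over the 12898 genes tested apart from Sox2, 20.0% were lower and 23.2% were higher in pMIR-Sox2 at an adjusted p under 0.05 (edgeR's quasi-likelihood test with Benjamini-Hochberg adjustment over all genes tested, as everywhere below), and the median log2 fold change was −0.02. On the first principal component, which held 83.5% of the variance, pMIR-Sox2 replicate 3 lay nearest to pMIR, at −35.0, beside −57.9 and −68.3 for the other pMIR-Sox2 libraries and 52.1 to 54.9 for the pMIR libraries. The 7 B cell markers summed to 2344 to 2942 CPM in pMIR-Sox2 and 3676 to 4684 CPM in pMIR, so the label of B cells held in both groups. T cell markers summed to at most 1.68 CPM in pMIR-Sox2 and 1.92 CPM in pMIR.

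Most cytosolic enzymes were lower in pMIR-Sox2 cells. Of the 20, 14 fell, 1 rose and 5 did not pass the test. The median log2 fold change of the 20 was −0.51, and the values ran from −0.86 for Eprs to 0.49 for Farsb. Of the 16 mitochondrial enzymes, 3 fell, none rose and 13 did not pass the test, with a median of −0.19 and a range from −0.60 for Yars2 to 0.25 for Mars2. By edgeR, 0 of the 16 were higher also at an unadjusted p under 0.05, and DESeq2's Wald test and limma-voom likewise called 0 higher. In bulk RNA, fewer cells of a type and less RNA per cell cannot be told apart.

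The cytosolic and mitochondrial enzymes differ in level, and so their counts were read against genes of like level. All 20 cytosolic enzymes had a mean of at least 50 CPM over the 6 libraries, and among the 4514 genes with such a mean 26.1% fell. Among the mitochondrial enzymes 2, Iars2 and Lars2, had such a mean, and neither was called, while 3 of the other 14 fell. Of the 5263 genes with a mean of 5 to 50 CPM, 19.6% fell. The 14 of 20 cytosolic falls thus stand against 26.1%, and the 3 of 14 mitochondrial falls against 19.6%. In 16 of the 20 cytosolic enzymes every pMIR-Sox2 library lay below every pMIR library, and in 1 every one lay above. The same held for 7 and 3 of the 16 mitochondrial enzymes, where over all genes 27.6% had no overlap with pMIR-Sox2 lower and 28.9% with pMIR-Sox2 higher.

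**Figure D1:**
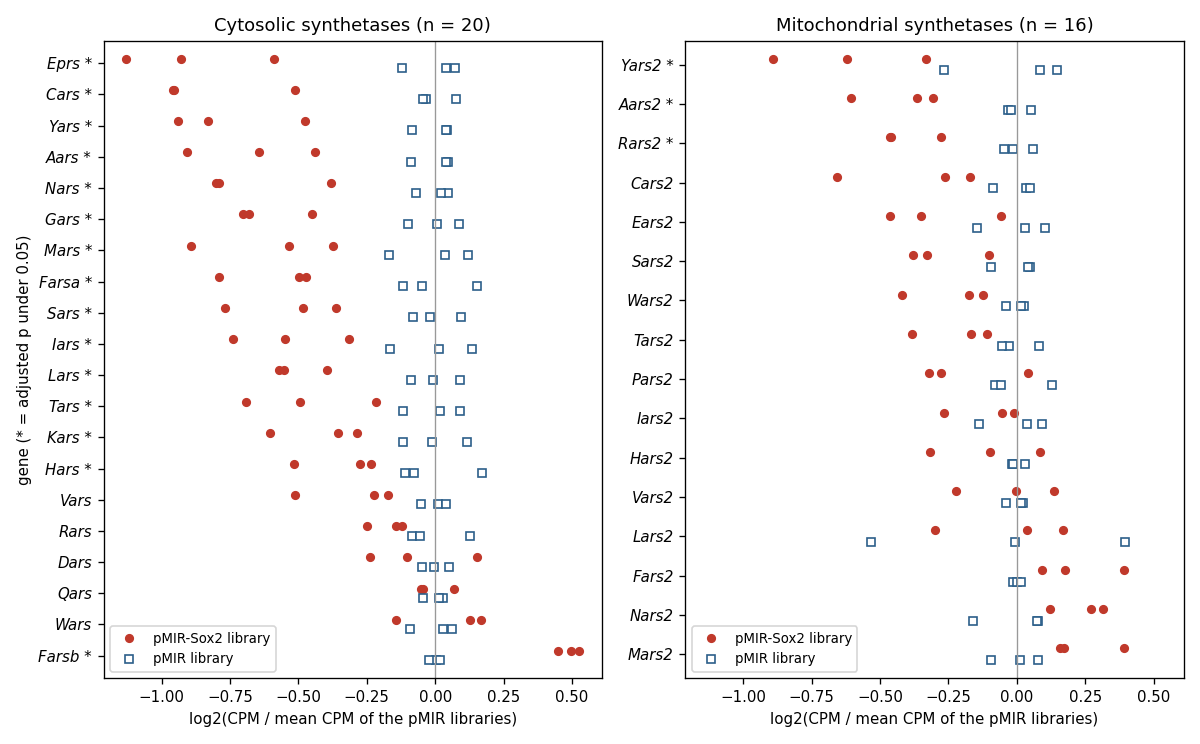
Level of each synthetase in each library, as log2 of its CPM over the mean CPM of the 3 pMIR libraries. Filled circles are pMIR-Sox2 libraries, open squares pMIR libraries, and a star marks an adjusted p under 0.05 (edgeR). In 16 of 20 cytosolic genes the circles all lie left of the squares, and in Farsb all lie right of them.

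Eprs, Cars and Yars had the smallest adjusted p among the cytosolic enzymes that fell. Eprs, which joins glutamyl- and prolyl-tRNA synthetase in 1 protein of the multisynthetase complex, had 266, 232 and 337 CPM in pMIR-Sox2 libraries, against 465, 533 and 521 CPM in pMIR libraries. Every pMIR-Sox2 library lay below every pMIR library, with replicate 3 the highest of the pMIR-Sox2 libraries, which gave a log2 fold change of −0.86 ± 0.15 (SE, adjusted p = 0.00156). Cars, the cysteinyl enzyme, had 65.0, 65.1 and 88.4 CPM in pMIR-Sox2 libraries, against 123, 122 and 133 CPM in pMIR libraries. Its groups did not overlap either, for a log2 fold change of −0.79 ± 0.13 (SE, adjusted p = 0.00152). Yars, the tyrosyl enzyme, had 85.7, 79.5 and 109.7 CPM in pMIR-Sox2 libraries, against 157, 144 and 157 CPM in pMIR libraries. Replicate 3 again stood above the other pMIR-Sox2 libraries and below all pMIR libraries, with a log2 fold change of −0.74 ± 0.13 (SE, adjusted p = 0.00195).

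The remaining 11 cytosolic falls covered enzymes inside and outside the complex. Aars, for alanine, averaged 204 ± 32.6 CPM in pMIR-Sox2 and 321 ± 16.8 CPM in pMIR (SD, n = 3 each), a log2 fold change of −0.65. Nars, for asparagine, had a log2 fold change of −0.64, Gars −0.61, Mars, for methionine, −0.58, and Farsa, the alpha subunit of the phenylalanyl enzyme, −0.58. Sars, for serine, had −0.53, Iars, for isoleucine, −0.52, and Lars, for leucine, −0.50. Tars, for threonine, had −0.45, Kars −0.41 and Hars, for histidine, −0.34. Their adjusted p ran from 0.00238 for Gars to 0.0440 for Hars. Aars, Cars, Eprs, Farsa, Gars, Lars, Mars, Nars, Sars and Yars, 10 of the 14, stayed called in all 12 other fits made of each gene (other scalings, filters, tools, the replicate block and each library left out).

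The other 4 lost their call in some of these fits, with log2 fold changes that stayed below 0 in each: from −0.39 to −0.25 for Hars, −0.58 to −0.35 for Tars, −0.47 to −0.32 for Kars and −0.63 to −0.42 for Iars. The call for Hars ended under scaling by library totals (adjusted p = 0.111) or no filter (0.0509), and without pMIR-Sox2 replicate 1 (0.0755), pMIR-Sox2 replicate 2 (0.128), pMIR replicate 1 (0.168) or pMIR replicate 3 (0.0749). For Tars it ended without pMIR replicate 1 (0.0755), pMIR replicate 3 (0.0619), pMIR-Sox2 replicate 1 (0.0684) or pMIR-Sox2 replicate 2 (0.0565). For Kars it ended without pMIR replicate 1 (0.0859), pMIR replicate 3 (0.0612) or pMIR-Sox2 replicate 2 (0.0614). Without pMIR replicate 3 it ended for Iars too (0.0512). Kars has a processed pseudogene in the annotation used here, which was listed at 0 counts in every library. Tarsl2, a threonyl-tRNA synthetase-like gene outside the list and chosen after its values were seen, moved the other way from Tars. It had 23.8, 23.6 and 17.97 CPM in pMIR-Sox2 libraries, against 10.8, 10.9 and 9.31 CPM in pMIR libraries, with a log2 fold change of 1.08 ± 0.15 (SE, adjusted p = 0.000593).

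Of the 5 cytosolic enzymes that were not called, Vars, the valyl enzyme, which binds the elongation factor 1 complex, came nearest to the threshold. It had 695, 570.2 and 721 CPM in pMIR-Sox2 libraries, against 818, 785 and 836 CPM in pMIR libraries, and its groups did not overlap. Its log2 fold change of −0.30 ± 0.12 (SE) had an adjusted p of 0.0729, which was 0.0217 with the replicate pairs as a block, 0.0465 without pMIR-Sox2 replicate 3 and 0.0407 by DESeq2's Wald test. Rars, for arginine, had a log2 fold change of −0.17 ± 0.10, also with no overlap of libraries. Dars, for aspartate, had −0.05 ± 0.12, Qars, for glutamine, −0.01 ± 0.09 and Wars, for tryptophan, an enzyme known to be induced by interferon, 0.06 ± 0.11 (SE), with overlapping groups in all 3 genes. The sign of Dars and of Qars turned under other scalings.

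Promoter sequences were shown for the 5 synthetases whose window holds the letters TGATGNAA, the C/EBP-ATF element that Atf4 and its partners are known to bind. RefSeq promoter windows on GRCm38.p6, from 250 bases before to 50 bases after the annotated start, were matched to 26 of the 36 genes, 12 of the 17 that fell among them. The element, searched on both strands, was in 5 of the 26 (19.2%), namely Aars, Gars, Iars, Tars and Yars. It was also in 4.51% of the 27025 genes with a window, and in 2.71% of the 8708 tested genes with one. All 5 synthetases were among the genes that fell. Over all tested genes with the element in the window, 55 of 236 fell (23.3%), beside 20.0% of all genes tested. More of these 236 rose, 62, where 23.2% of all genes tested rose. The element stands in capitals below, read 5′ to 3′ in the direction of the gene, where TTNCATCA is its form on the other strand; the windows are chr8:111033592-111033891 (+) for Aars, chr6:55037751-55038050 (+) for Gars, chr13:49681880-49682179 (+) for Iars, chr15:11399609-11399908 (−) for Tars and chr4:129189653-129189952 (+) for Yars.
Aars: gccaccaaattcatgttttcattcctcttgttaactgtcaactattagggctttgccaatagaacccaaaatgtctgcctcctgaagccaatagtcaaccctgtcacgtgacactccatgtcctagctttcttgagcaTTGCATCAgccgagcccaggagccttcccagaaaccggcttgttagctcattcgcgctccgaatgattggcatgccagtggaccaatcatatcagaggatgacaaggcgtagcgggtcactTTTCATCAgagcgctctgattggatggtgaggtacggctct
Gars: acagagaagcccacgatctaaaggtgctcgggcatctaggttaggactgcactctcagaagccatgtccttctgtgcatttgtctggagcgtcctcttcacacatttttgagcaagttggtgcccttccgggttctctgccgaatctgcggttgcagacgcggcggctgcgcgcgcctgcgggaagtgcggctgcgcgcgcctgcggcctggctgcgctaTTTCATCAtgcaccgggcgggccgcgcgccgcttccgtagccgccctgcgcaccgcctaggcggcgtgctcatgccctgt
Iars: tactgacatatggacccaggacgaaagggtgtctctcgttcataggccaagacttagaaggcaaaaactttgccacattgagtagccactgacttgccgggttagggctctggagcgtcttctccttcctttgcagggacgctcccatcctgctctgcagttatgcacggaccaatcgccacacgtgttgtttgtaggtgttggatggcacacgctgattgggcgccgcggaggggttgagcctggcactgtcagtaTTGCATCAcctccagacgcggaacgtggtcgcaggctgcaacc
Tars: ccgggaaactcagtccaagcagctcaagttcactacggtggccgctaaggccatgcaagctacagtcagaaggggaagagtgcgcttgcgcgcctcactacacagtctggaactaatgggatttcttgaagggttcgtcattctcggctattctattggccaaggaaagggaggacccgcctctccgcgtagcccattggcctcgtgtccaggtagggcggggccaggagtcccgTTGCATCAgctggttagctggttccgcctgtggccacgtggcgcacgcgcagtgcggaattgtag
Yars: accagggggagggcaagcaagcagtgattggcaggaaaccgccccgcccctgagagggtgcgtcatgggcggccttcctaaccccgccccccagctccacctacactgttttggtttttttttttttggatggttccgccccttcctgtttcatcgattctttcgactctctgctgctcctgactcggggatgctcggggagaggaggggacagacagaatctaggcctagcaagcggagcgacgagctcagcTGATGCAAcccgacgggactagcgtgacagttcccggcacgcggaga

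The element began −112 and 9 bases from the start in Aars, −30 in Gars, 7 in Iars, −15 in Tars and 3 in Yars, with the start counted as 0. The E-box CACGTG, which Myc and its relatives are known to bind, was in 5 of the 26 windows (Aars, Farsb, Iars, Tars and Ears2). Its share was 8.09% of all genes with a window and 12.1% of the tested genes with one. The E-box was thus in the window of Farsb, which rose, as well as in 3 genes that fell. Over all 1052 tested genes with the E-box in the window, 275 fell (26.1%) and 212 rose. The Sox core letters ACAATG were in the windows of Sars and Cars2 and in 14.3% of all genes with a window. ACAAAG was in those of Qars and Wars2 and in 21.02% of all genes with a window. Among the tested genes with a window, the shares were 8.93% for ACAATG and 16.5% for ACAAAG. None of these matches shows that a factor was bound. The motifs did not overlap each other in these windows.

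**Figure D2:**
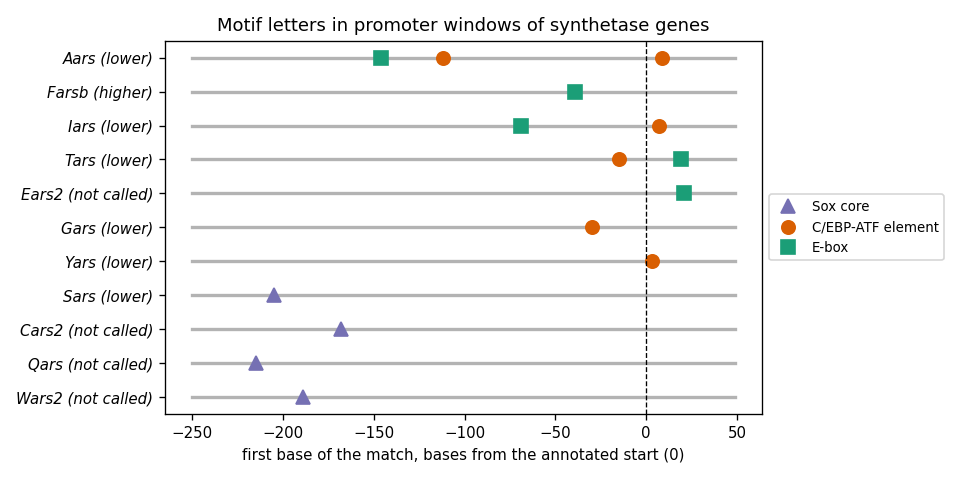
Positions of motif letters in the promoter windows of the synthetases that hold at least 1 of them, as distance in bases of the first base of the match from the annotated start at 0. Circles are the C/EBP-ATF element, squares the E-box and triangles the Sox core letters. The 5 genes with circles (Aars, Iars, Tars, Gars, Yars) all fell in pMIR-Sox2.

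The phenylalanyl enzyme of the cytosol was split by direction. It is built from alpha subunits, made from Farsa, and beta subunits, made from Farsb, and both are needed for activity. Farsa had 65.9, 53.9 and 67.1 CPM in pMIR-Sox2 libraries, against 104, 85.7 and 89.9 CPM in pMIR libraries. All pMIR-Sox2 libraries were lower, for a log2 fold change of −0.58 ± 0.12 (SE, adjusted p = 0.00460). Farsb had 191, 195 and 184 CPM in pMIR-Sox2 libraries, against 136, 137 and 133 CPM in pMIR libraries. All pMIR-Sox2 libraries were higher, and the replicates of both groups were close together, for a log2 fold change of 0.49 ± 0.09 (SE, adjusted p = 0.00218).

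Farsb was the 1 synthetase of the 36 that rose, and it rose in all 12 other fits. Per kilobase of exon, the ratio of Farsa to Farsb was 0.200, 0.160 and 0.210 in pMIR-Sox2 libraries, against 0.441, 0.362 and 0.390 in pMIR libraries. The groups did not overlap, and the mean log2 ratio differed by −1.07 (two-sided exact permutation test, p = 0.1, the smallest that 3 libraries against 3 allow). Farsb shares 248 exon bases with Sgpp2 on the opposite strand, a gene named after its values were seen, and the strand setting of the counting is not given in the sources used here. Sgpp2 itself had at most 0.138 CPM in pMIR-Sox2 and 0.238 CPM in pMIR. Farsa has no such overlap.

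**Figure D3:**
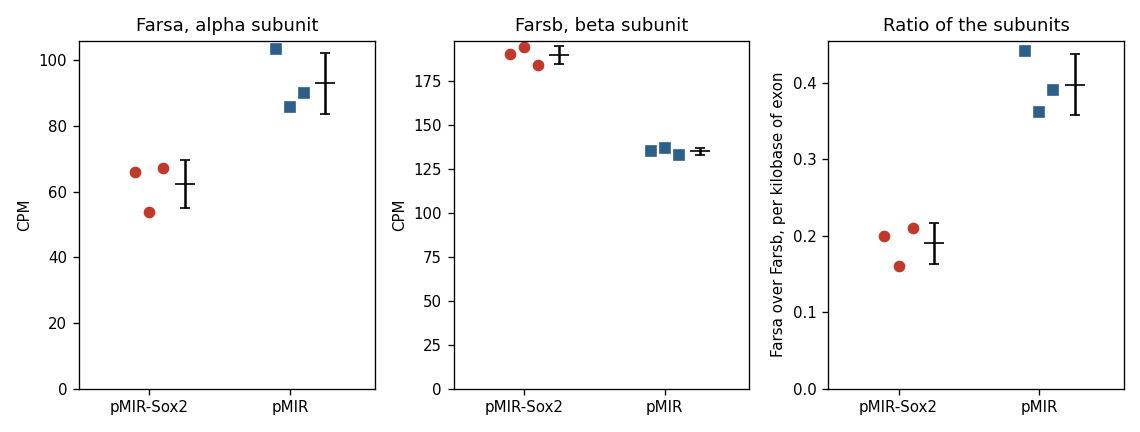
Farsa and Farsb in CPM, and their ratio per kilobase of exon, in each library. Points are libraries, and the bars beside them give the mean ± SD of 3. The pMIR-Sox2 libraries lie below all pMIR libraries for Farsa and for the ratio, and above them for Farsb.

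Among the mitochondrial enzymes, Rars2, Yars2 and Aars2 fell. Rars2, the mitochondrial arginyl enzyme, had 28.7, 28.8 and 32.7 CPM in pMIR-Sox2 libraries, against 39.2, 41.2 and 38.3 CPM in pMIR libraries. The groups were apart, with a log2 fold change of −0.40 ± 0.10 (SE, adjusted p = 0.0124), and the call held in all 12 other fits. Yars2, the tyrosyl enzyme, had 19.6, 16.2 and 23.9 CPM in pMIR-Sox2 libraries, against 33.3, 25.02 and 31.9 CPM in pMIR libraries. Its highest pMIR-Sox2 library came close to its lowest pMIR library, for a log2 fold change of −0.60 ± 0.17 (SE, adjusted p = 0.0170). Aars2, the alanyl enzyme, had 16.9, 13.7 and 16.2 CPM in pMIR-Sox2 libraries, against 21.6, 20.4 and 20.6 CPM in pMIR libraries. The groups were apart, with a log2 fold change of −0.42 ± 0.12 (SE, adjusted p = 0.0224).

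The last 2 calls were less firm, though the log2 fold changes over the 12 other fits stayed below 0, from −0.74 to −0.47 for Yars2 and from −0.47 to −0.33 for Aars2. Yars2 lost its call without pMIR replicate 1 (adjusted p = 0.0693), pMIR replicate 3 (0.0593) or pMIR-Sox2 replicate 1 (0.0625). Aars2 lost its call under scaling by library totals (adjusted p = 0.0545), or without pMIR-Sox2 replicate 2 (0.0736), pMIR replicate 1 (0.0777) or pMIR replicate 3 (0.0615). The number of mitochondrial enzymes that fell was therefore 1 without pMIR replicate 1 or without pMIR replicate 3. It was 5 without pMIR-Sox2 replicate 3, where Cars2 (adjusted p = 0.0348) and Sars2 (0.0432) joined.

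None of the other 13 mitochondrial enzymes passed the test. Cars2, for cysteine, had a log2 fold change of −0.35 ± 0.14 (SE, adjusted p = 0.0711, and 0.0133 with the replicate pairs as a block). Ears2, for glutamate, had −0.28, Sars2, for serine, −0.27, Wars2, for tryptophan, −0.23, Tars2, for threonine, −0.22 and Pars2, for proline, −0.17. Iars2, for isoleucine, had −0.11 and Hars2, for histidine, −0.10, while Vars2, for valine, and Lars2, for leucine, both had −0.02, with signs that turned in other fits. Fars2, Nars2 and Mars2 (phenylalanine, asparagine and methionine) had 0.22, 0.24 and 0.25, with every pMIR-Sox2 library above every pMIR library in each and adjusted p of 0.183, 0.196 and 0.167. These are the 3 mitochondrial enzymes whose values lay above 0.

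Lars2 was the most variable of the 36. It had 323, 256 and 354 CPM in pMIR-Sox2 libraries, against 414, 313 and 218 CPM in pMIR libraries. The pMIR libraries alone spanned the whole range of the pMIR-Sox2 libraries, and the SE of the log2 fold change was 0.22. As the most abundant mitochondrial enzyme it made up 45.7% of the summed CPM of the 16 in pMIR-Sox2 and 42.9% in pMIR. The sum of the 16 was 702, 588 and 750.2 CPM in pMIR-Sox2 libraries, against 840, 709 and 651 CPM in pMIR libraries, a ratio of means of 0.928 with overlapping groups. Without Lars2 it was 379, 332 and 396 CPM in pMIR-Sox2 libraries, against 426, 396 and 433 CPM in pMIR libraries, a ratio of 0.883. The sum of the 20 cytosolic enzymes was 3641, 3374 and 4104 CPM in pMIR-Sox2 libraries, against 5051, 4790 and 5036 CPM in pMIR libraries, with a ratio of 0.747 and no overlap.

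Enzymes of both compartments that charge the same amino acid were compared as pairs within each library, by the log2 ratio of the cytosolic to the mitochondrial level. In 14 of 17 pairs the mean ratio was lower in pMIR-Sox2, in 11 with no overlap of libraries, and in 1 pair, Farsb over Fars2, it was higher with no overlap. The median difference of the log2 ratio over the pairs was −0.27. For 12 pairs the two-sided exact permutation p was 0.1, the smallest that 3 against 3 allow, so no pair could pass 0.05 in this design. In 11 pairs the cytosolic partner fell and the mitochondrial one did not pass the test, in 2 (alanine and tyrosine) both fell, and in 1 (arginine) only the mitochondrial one was called lower. Eprs and Fars2 each stand in 2 pairs. The pairs hold the same enzymes as the counts above and are not a separate result. Shares for other pairs of genes are not given here.

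The widest gaps were those of asparagine, methionine and phenylalanine. Nars had 178, 177 and 237 CPM in pMIR-Sox2 libraries, against 318, 294 and 312 CPM in pMIR libraries. Nars2 had 13.4, 12.1 and 13.8 CPM in pMIR-Sox2 libraries, against 11.7, 9.91 and 11.7 CPM in pMIR libraries. The partners thus lay on opposite sides of 0, and their log2 ratio differed by −0.89 between the groups. Mars had 130.0, 102 and 145 CPM in pMIR-Sox2 libraries, against 193, 168 and 204 CPM in pMIR libraries. Mars2 had 15.5, 13.4 and 13.2 CPM in pMIR-Sox2 libraries, against 11.9, 11.1 and 12.5 CPM in pMIR libraries. Their log2 ratio differed by −0.84, again with the libraries of both groups apart. Fars2 had 15.3, 18.9 and 16.3 CPM in pMIR-Sox2 libraries, against 14.3, 14.4 and 14.5 CPM in pMIR libraries, and the log2 ratio of Farsa to Fars2 differed by −0.80.

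Tyrosine and arginine were unlike these. Yars and Yars2 both fell, and their log2 ratio differed by −0.15 with overlapping libraries (exact permutation p = 0.2). Rars had 143, 131 and 140.4 CPM in pMIR-Sox2 libraries, against 169.6, 147 and 149 CPM in pMIR libraries. The log2 ratio of Rars to Rars2 was 0.23 higher in pMIR-Sox2, with overlapping libraries (exact permutation p = 0.2). For leucine, the difference of −0.52 carried the spread of Lars2, and its libraries overlapped (exact permutation p = 0.2). Lars had 115, 113 and 128 CPM in pMIR-Sox2 libraries, against 179.6, 159 and 167 CPM in pMIR libraries.

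**Figure D4:**
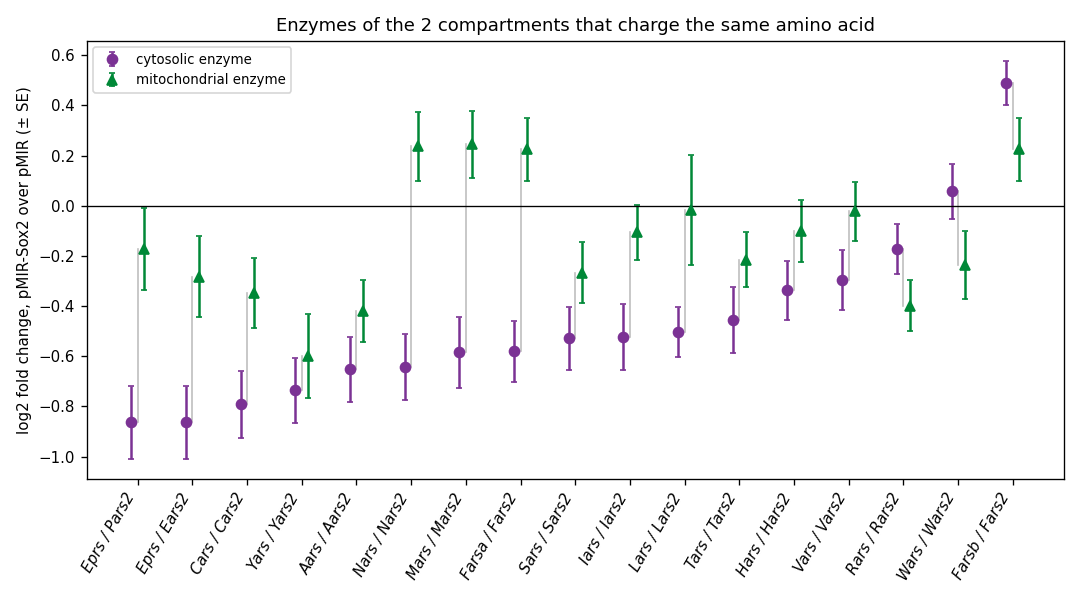
Log2 fold change of pMIR-Sox2 over pMIR (± SE) for the cytosolic enzyme (circle) and the mitochondrial enzyme (triangle) of each of 17 pairs that charge the same amino acid, ordered by the cytosolic value. Circles lie below triangles in 14 pairs, and above them for Rars, Wars and Farsb.

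Some amino acids have no such pair. Gars and Kars serve both compartments, and both fell; without them 12 of 18 cytosolic enzymes fell. Qars has no mitochondrial partner on the list, since mitochondria are known to make glutaminyl-tRNA by another route, through an amidotransferase that holds Gatc. Qars did not pass the test (adjusted p = 0.955), while Gatc fell.

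Enzymes that fell were found inside and outside the multisynthetase complex and in both structural classes. Of the 8 enzymes of the multisynthetase complex, 5 fell (Eprs, Iars, Lars, Mars and Kars) and Dars, Qars and Rars did not pass the test, with a median log2 fold change of −0.46. Of the 12 cytosolic enzymes outside it, 9 fell, Farsb rose and Vars and Wars did not pass the test, with a median of −0.55. The synthetases belong to 2 unrelated structural classes, and Eprs, which holds an enzyme of each, was left out of this count. Of the 9 other class I enzymes of the cytosol, 5 fell, with a median of −0.50, and of the 10 of class II, 8 fell and 1 rose, with a median of −0.49. Over all genes 20.0% fell, and 26.1% of those with a mean of at least 50 CPM. The difference between these groups of enzymes was not tested.

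The scaffold and the factors that use charged transfer RNA came next. Eef1e1 fell, at 31.7, 28.5 and 41.4 CPM in pMIR-Sox2 libraries, against 60.4, 44.4 and 53.7 CPM in pMIR libraries (log2 fold change −0.64, adjusted p = 0.0115). Aimp2 fell as well (−0.62, adjusted p = 0.0192) and Aimp1 did not pass the test (−0.13). Both scaffold calls ended without pMIR-Sox2 replicate 1 (adjusted p of 0.0530 and 0.0600) or pMIR replicate 1 (0.0507 and 0.0713), and that of Aimp2 also without pMIR replicate 3 (0.0658). Of 8 cytosolic elongation factor genes, 2 rose and 2 fell, which is near the shares over all genes (23.2% higher and 20.0% lower). Eef2k, the kinase that inhibits elongation factor 2, rose (log2 fold change 1.25, adjusted p = 0.00348), as did Eif5a2 (0.62, adjusted p = 0.00699), a paralog of the factor Eif5a. Eif5a itself fell (−0.71, adjusted p = 0.0147), though not without pMIR replicate 1 (0.0633). Eef1d, of the exchange factor for elongation factor 1, fell by 0.35 on the log2 scale (adjusted p = 0.0368), and its call ended under scaling by library totals (0.0826) or without any 1 of 4 libraries: pMIR-Sox2 replicate 1 (0.0912), pMIR-Sox2 replicate 2 (0.108), pMIR replicate 1 (0.132) or pMIR replicate 3 (0.101).

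Of 14 mitochondrial translation factors tested, 4 fell and 1 rose, where 20.0% of all genes fell and 23.2% rose, with a median log2 fold change of −0.19, the same to 2 decimals as that of the mitochondrial synthetases. Tufm, the mitochondrial elongation factor that carries charged transfer RNA to the ribosome, had 66.4, 56.2 and 71.2 CPM in pMIR-Sox2 libraries, against 106, 79.3 and 102 CPM in pMIR libraries. Its groups did not overlap, with a log2 fold change of −0.57 (adjusted p = 0.00933). Gfm2, which recycles ribosomes, had −0.39 (adjusted p = 0.00677) and Gatc −0.45 (adjusted p = 0.0115). Tsfm, the exchange factor of Tufm, named because it completes the count, had −0.36 (adjusted p = 0.0194), and its call ended under scaling by library totals (0.0537) or without pMIR-Sox2 replicate 2 (0.0617), pMIR replicate 1 (0.0805) or pMIR replicate 3 (0.0578). Mtif2, the initiation factor of mitochondria, rose: it had 66.1, 64.5 and 60.6 CPM in pMIR-Sox2 libraries, against 37.3, 42.9 and 39.5 CPM in pMIR libraries (log2 fold change 0.68, adjusted p = 0.000756).

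Genes of the Atf4 pathway take up and make amino acids and respond to their shortage. Of 30 tested, 18 fell, 0 rose and 12 did not pass the test, where 20.0% of all genes fell and 23.2% rose. Their median log2 fold change was −0.75, beside −0.02 over all genes. By edgeR 0 rose also at an unadjusted p under 0.05, and by limma-voom and DESeq2's Wald test 0 rose. Sesn2, which senses leucine, had 50.03, 42.5 and 59.4 CPM in pMIR-Sox2 libraries, against 168, 116 and 131 CPM in pMIR libraries. Its groups lay far apart, with a log2 fold change of −1.45 ± 0.17 (SE, adjusted p = 0.000217). Slc7a5, a carrier of large neutral amino acids, had −1.32 (adjusted p = 0.00101), Slc7a1, a carrier of arginine and lysine, −0.84 (adjusted p = 0.00184) and the transcription factor Atf5 −0.83 (adjusted p = 0.00143). Atf4 itself had 225, 262 and 435 CPM in pMIR-Sox2 libraries, against 444, 418 and 504 CPM in pMIR libraries. Replicate 3 of pMIR-Sox2 overlapped the pMIR libraries, and the log2 fold change of −0.57 ± 0.22 (SE) did not pass the test (adjusted p = 0.0675). Without that library its log2 fold change was −0.89 (adjusted p = 0.000726), and its adjusted p was 0.00194 with the replicate pairs as a block, 0.0272 by DESeq2's Wald test and 0.0455 by limma-voom. The other 8 of the 12 fits did not call Atf4. Its log2 fold change was −0.38 without pMIR-Sox2 replicate 1, and with 1 library left out its adjusted p reached 0.208. Myc, a driver of growth whose known targets include genes of translation, had 209, 176 and 244 CPM in pMIR-Sox2 libraries, against 507, 335 and 398 CPM in pMIR libraries, and fell by 0.98 on the log2 scale (adjusted p = 0.00194).

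The libraries of a group were ordered alike across the synthetases. Replicate 3 was the highest of the pMIR-Sox2 libraries in 16 of the 20 cytosolic and 11 of the 16 mitochondrial enzymes, and replicate 2 the lowest in 14 and 13. In pMIR, replicate 2 was the lowest in 15 of the 20 and 10 of the 16. Against the pMIR mean, the median log2 difference of the cytosolic enzymes was −0.52, −0.65 and −0.34 in pMIR-Sox2 replicates 1, 2 and 3, and that of the mitochondrial enzymes −0.13, −0.35 and −0.08. The cytosolic median was thus the lower in each of the 3 libraries. Without pMIR-Sox2 replicate 3, 15 of the 20 cytosolic enzymes fell.

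Markers of B cells and of plasma cells moved with the cytosolic synthetases. Among the B cell markers, Ms4a1, Cd22, Cd79b and Blk fell and Pax5 rose. The 5 plasma cell markers summed to 494 to 575 CPM in pMIR-Sox2 and 902 to 1094 CPM in pMIR, with Irf4, Xbp1 and Igj lower and Prdm1 higher, and none at 0. The 9 myeloid markers summed to 38.3 to 43.3 CPM in pMIR-Sox2 and 36.6 to 39.0 CPM in pMIR, with 3 higher, 1 lower and S100a8 and S100a9 at 0. NK cell markers summed to at most 3.36 CPM in pMIR-Sox2 and 3.26 CPM in pMIR, with Ncr1 at 0, and erythroid markers to at most 0.595 CPM in pMIR-Sox2 and 0.768 CPM in pMIR, with Hbb-b1 and Hba-a1 at 0. The part of these shifts in the lower synthetase levels was not tested.

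Levels of different synthetases were compared per kilobase of annotated exon. Vars was the highest cytosolic enzyme in both groups, with 118 ± 14.4 CPM per kilobase in pMIR-Sox2 and 145 ± 4.61 in pMIR (SD, n = 3 each), and Cars the lowest, with 11.1 ± 2.06 in pMIR-Sox2 and 19.2 ± 0.895 in pMIR. Gars had the rank of 3 in pMIR-Sox2 and of 2 in pMIR, and Nars that of 6 in pMIR-Sox2 and of 3 in pMIR. Farsb had the rank of 2 of 20 in pMIR-Sox2, with 72.5 ± 2.00 CPM per kilobase, and of 9 in pMIR, with 51.6 ± 0.716. Among the mitochondrial enzymes Lars2 was highest, with 28.0 ± 4.53 CPM per kilobase in pMIR-Sox2 and 28.4 ± 8.85 in pMIR, and Mars2 lowest, with 1.24 ± 0.115 in pMIR-Sox2 and 1.05 ± 0.0615 in pMIR. Iars2 and Rars2 followed Lars2, and their order in pMIR-Sox2 (11.02 ± 1.01 and 10.8 ± 0.822 CPM per kilobase) was within the spread of the libraries. In every pair except leucine the cytosolic enzyme had the higher level per kilobase in every library. Lars lay below Lars2 in all 3 pMIR-Sox2 libraries and in pMIR replicate 1, and above it in pMIR replicates 2 and 3.

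**Figure D5:**
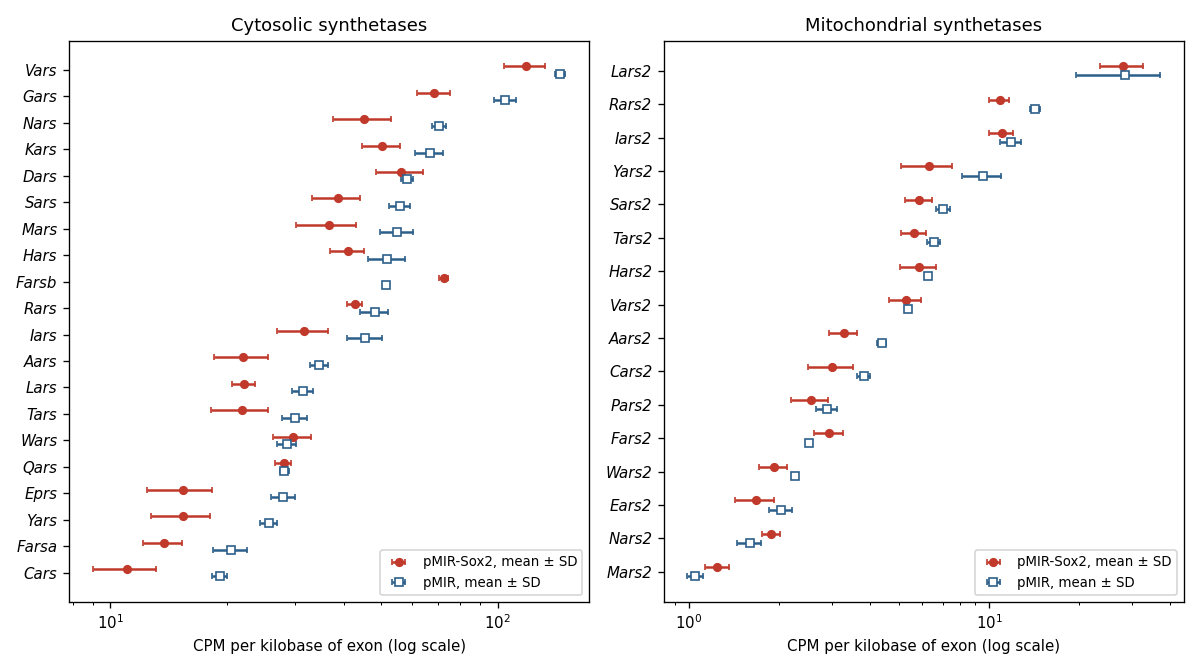
Level of each synthetase per kilobase of annotated exon, in CPM on a log axis, as mean ± SD of 3 libraries for pMIR-Sox2 (filled circles) and pMIR (open squares), ordered by the pMIR mean. Vars and Lars2 are the highest of their compartments in both groups, and Farsb lies further right in pMIR-Sox2.

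Exons of 13 of the 36 genes overlap an exon of another gene in the annotation used here, 6 of them cytosolic (Aars, Cars, Farsb, Hars, Mars and Yars). With these left out, a choice made after seeing the data, 9 of 14 cytosolic enzymes fell, Farsb was no longer counted, and all 3 mitochondrial falls were among the genes without overlap. The overlapping partners of Cars and Yars were listed at 0 and at no more than 1.51 CPM in pMIR-Sox2 and 2.54 CPM in pMIR. Mars shares 68 exon bases with Ddit3 on the opposite strand, which had 7.40, 13.5 and 30.02 CPM in pMIR-Sox2 libraries, against 20.3, 29.6 and 35.7 CPM in pMIR libraries (log2 fold change −0.76, adjusted p = 0.183). Aars shares 1326 exon bases with Exosc6 on the same strand, for which no value was matched here, so the part of Exosc6 in the count of Aars was not tested. Among the mitochondrial enzymes, Iars2 shares 2034 exon bases with Rab3gap2 on the opposite strand. Rab3gap2 had 82.4, 70.4 and 81.5 CPM in pMIR-Sox2 libraries, against 74.7, 69.2 and 74.2 CPM in pMIR libraries. The part of Rab3gap2 in the count of Iars2 was not tested. These partners were looked at after the values of the synthetases were seen. Hars and Hars2 share 195 exon bases on opposite strands. As the strand setting is not given, it is not known whether reads on these bases were told apart.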

How the data were processed

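Total RNA of 6 libraries was sequenced, 3 pMIR-Sox2 and 3 pMIR, grouped by sample title. The authors deposited 1 table of raw read counts, by Ensembl gene and library. The tools named in the submitters' processing notes, without order or role, are HTSeq 0.6.1p1, SAMtools 0.1.19, Bowtie2 2.2.2, TopHat2 2.0.11 and Trimmomatic 0.32, and the build is mm9. No source used here gives the annotation release or the strand setting. The closing lines, 5 in number, name no gene and stayed out of library sizes and tests: not unique (23.1 to 26.5% of a library in pMIR-Sox2 and 25.7 to 26.0% in pMIR), no feature (12.1 to 14.6% in pMIR-Sox2 and 11.4 to 13.1% in pMIR), not aligned (8.51 to 8.92% in pMIR-Sox2 and 8.55 to 9.65% in pMIR), ambiguous (0.284 to 0.289% in pMIR-Sox2 and 0.283 to 0.307% in pMIR) and low quality (0). Reads that align to several places were therefore not counted for any gene, which bears on genes with near-identical copies.

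All genes went through 1 fit in edgeR 4.0.16 (R 4.3.3): filterByExpr with the group, TMM scaling, quasi-likelihood fits with the robust option for the contrast of pMIR-Sox2 with pMIR, Benjamini-Hochberg adjustment over all 12899 genes tested and a threshold of 0.05. The common biological coefficient of variation was 14.4%. SE is that of the log2 fold change, and errors of CPM are SD over 3 libraries. Ratios of a pair were taken on the log2 scale, after adding a prior count of 2, with an exact permutation test over libraries. Replicates of a group differed beyond sampling noise (chi-square per degree of freedom 13.9 to 33.5). The test was checked on simulated counts that gave every gene the same dispersion. That check does not bear on genes with a larger spread between replicates. The sample descriptions give replicates 1, 2 and 3 of both groups the shared numbers 8, 9 and 12, and do not say what these mark. The deviations of same-numbered libraries from their group means correlated at 0.242, 0.359 and 0.189 over genes. The numbers were therefore taken to pair the samples in a fit with the pairs as a block, made beside the main one. The main fit, whose design has the group only, and the permutation test took no account of the pairs.

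Exon length, overlap and chromosome came from GENCODE M21 on GRCm38 and promoter windows from RefSeq on GRCm38.p6, both other builds than mm9 and joined by gene identifier or symbol. The 36 synthetases are all named. Beside them stand Sox2, Myc, Atf4 and up to 4 genes of smallest adjusted p from each related list, and values in every library are given for the 3 enzymes of smallest adjusted p per compartment and direction and for pairs described in full. Other genes are named with a remark, and some genes of the lists are not reported here. The members and the lists were chosen with earlier results of these data known, so no p is given over a list. Alternatives were DESeq2 size factors and Wald test (1.42.0), limma-voom (3.58.1), scaling by library totals only, no filter, the block, each library left out, a prior count of 0.5 for ratios, Gars and Kars left out, and, chosen after seeing the data, overlapping members, Lars2 or Vars left out. The symbol Gatb of the list of mitochondrial translation factors was not matched in the table.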

Additional observations from a re-analysis of the deposited data

How the results depend on the processing

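Over the 12 other fits, 10 of the 14 cytosolic falls, the rise of Farsb and the fall of Rars2 were called in each. The cytosolic count of falls was 13 to 15 under the other scalings, filters and tools, and 10 to 15 with 1 library left out, with a median log2 fold change of −0.60 to −0.44. Overlapping members left out gave 9 falls and 0 rises. The mitochondrial falls numbered 2 to 3 under the other scalings, filters and tools and 1 to 5 with 1 library left out, with a median of −0.23 to −0.12. The scaffold falls numbered 0 to 2 with 1 library left out. Falls in the Atf4 pathway numbered 15 with no filter, 24 with the replicate block and 13 to 26 with 1 library left out. Elongation factor falls numbered 1 with library totals only and 0 to 2 with 1 library left out, and RNA polymerase III falls 2 with library totals only (beside 4 rises), 3 with no filter and 2 to 7 with 1 library left out. The cause was not tested.

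Signs turned in 4 synthetases that were not called. Dars had a log2 fold change of 0.021 with library totals only, and −0.16 to 0.037 over the fits that left out 1 library. Qars had 0.00015 with DESeq2 size factors, 0.069 with library totals only, 0.0087 with no filter, 9.2e-05 by DESeq2's Wald test and −0.045 to 0.022 with 1 library left out. Lars2 had 0.057 with library totals only, 0.022 by limma-voom, 0.014 with the replicate block and −0.23 to 0.22 with 1 library left out. Vars2 had 0.055 with library totals only and −0.10 to 0.070 with 1 library left out.

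With the replicate pairs as a block, 15 cytosolic and 4 mitochondrial enzymes fell, at medians of −0.52 and −0.20. The block added the calls of Vars and Cars2 and changed no other call among the synthetases. The log2 ratio of summed CPM was −0.45 without Vars, beside −0.42, and −0.18 without Lars2, beside −0.11, for the cytosolic and mitochondrial enzymes. With Gars and Kars left out 12 cytosolic enzymes fell. A prior count of 0.5 for ratios left the pairs with a lower ratio and no overlap at 11, and 1 library left out gave 11 to 14.

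With 3 libraries a group, the smallest exact permutation p is 0.1. The mitochondrial enzymes, at 8.41 to 313 CPM on average, had SE of 0.10 to 0.22 on the log2 scale, and the cytosolic enzymes, at 77.7 to 738 CPM, SE of 0.09 to 0.15, so a change of the size of the mitochondrial median, −0.19, was under 2 SE for each mitochondrial enzyme.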

Other observations

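RNA polymerase III, which makes transfer RNA, was followed by the genes of its subunits, its initiation factors and its repressor. Of 22 genes tested, 6 fell and 3 rose, with a median log2 fold change of −0.17, where 20.0% of all genes fell and 23.2% rose. With library totals only, 2 fell and 4 rose. Polr3e had 21.9, 21.3 and 27.7 CPM in pMIR-Sox2 libraries, against 42.7, 35.5 and 41.4 CPM in pMIR libraries, and fell by 0.76 on the log2 scale (adjusted p = 0.00202). The subunit gene Polr3k rose, with a log2 fold change of 0.45 (adjusted p = 0.00426), and so did Gtf3c3 of the initiation factor TFIIIC, with 0.53 (adjusted p = 0.00334). Maf1, a known repressor of the polymerase named because it completes the count, had 109, 145 and 110.0 CPM in pMIR-Sox2 libraries, against 80.9, 97.2 and 77.4 CPM in pMIR libraries. All pMIR-Sox2 libraries were higher, with a log2 fold change of 0.51 ± 0.14 (SE, adjusted p = 0.0163), and the call ended without pMIR replicate 1 (0.0662) or pMIR replicate 3 (0.0728). The falls numbered 2 without pMIR-Sox2 replicate 2, pMIR replicate 1 or pMIR replicate 3. Transfer RNA itself was not analysed here.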
